A study of Mus musculus with 4 samples.

Results

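Genes of major histocompatibility complex (MHC) class II antigen presentation and of B7 costimulation were examined in RNA from mouse lung cells sorted as smooth muscle cells. The 10 genes were the chains *H2-Aa*, *H2-Ab1* and *H2-Eb1*, the peptide-loading genes *H2-DMa*, *H2-DMb1*, *H2-Oa* and *Cd74*, the transactivator *Ciita*, and the costimulatory ligands *Cd80* and *Cd86*. They were chosen by name for their function, and all 10 were found among the 21462 genes of the deposited table. Each had a mean of at least 10 normalized counts over the libraries, so all 10 were among the 16659 genes tested.

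The 4 libraries were total RNA with ribosomal RNA depleted, 2 from control and 2 from *Tet3* mutant C57BL/6 mice. TET3 oxidizes 5-methylcytosine in DNA, and the comparison of genotypes asks how its loss in smooth muscle cells alters their transcripts. Mutants carried a floxed *Tet3* allele, a tamoxifen-inducible Cre recombinase driven by the *α-SMA* promoter, and a tdTomato reporter in *ROSA26*. By the study's methods, controls lacked the floxed allele and carried the Cre allele, the reporter or both, and tamoxifen was injected daily in young adulthood. The labels give the genotype as WT or Mut and give no sex, age or batch for a library, and separate animals are stated by the study. Digested lung was first depleted of cells bound by CD45 and Ter-119 beads, and living tdTomato+ cells were then sorted. The *α-SMA* promoter thus decided which cells lost *Tet3* and also which cells were collected.

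MHC class II molecules are pairs of an α and a β chain that carry peptides from endocytosed protein to the cell surface, where CD4+ T cells read them. The invariant chain CD74 occupies the groove during assembly, H2-DM exchanges its remnant for peptide, and H2-O restrains H2-DM. Professional antigen-presenting cells (dendritic cells, B cells and macrophages) express these genes together under the coactivator CIITA, mouse alveolar type 2 epithelial cells also express class II, and other cells can do so after interferon gamma. Full activation of a T cell also needs CD80 or CD86 on the presenting cell to engage CD28.

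CIITA binds no DNA itself and is held at class II promoters by factors on a conserved X box and Y box. The start of the X box (GCAAC in these genes) and the Y box (ATTGG, an inverted CCAAT) were searched for on both strands in the 250 bases before each RefSeq start site on GRCm38.p6. Of the 10 genes, 6 had an entry, 5 of the 6 held ATTGG, and 3 held GCAAC upstream of ATTGG with 24 to 30 bases between them. These 3 are shown because they are 2 classical chains and the gene of the largest fold change among the 10. Each stretch of 70 bases is written 5′ to 3′ on the gene's strand, aligned on the Y box, with both motifs in capitals.
*H2-Aa*: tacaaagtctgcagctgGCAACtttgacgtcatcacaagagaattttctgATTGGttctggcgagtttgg
*H2-Eb1*: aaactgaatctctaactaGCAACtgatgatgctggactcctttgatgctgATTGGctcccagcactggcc
*H2-Oa*: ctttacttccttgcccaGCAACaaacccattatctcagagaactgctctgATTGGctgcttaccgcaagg

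The *H2-Aa* stretch lies at chr17:34287852-34287921 on the minus strand, that of *H2-Eb1* at chr17:34305758-34305827 on the plus strand, and that of *H2-Oa* at chr17:34092286-34092355 on the plus strand. The motifs were 28 bases apart in *H2-Aa* and *H2-Oa* and 27 bases apart in *H2-Eb1*. Over 32851 promoter windows of the same length, 29.9% held GCAAC, 33.8% held ATTGG and 0.271% held the pair at this spacing, which was chosen after these sequences were seen. A match of letters is a description and shows no binding.

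Before the genotypes were compared, the libraries were checked. *Tet3* itself was at 1847 normalized counts in control replicate 1 and 1926 in the other control, 1534 in Tet3 mutant replicate 1 and 1444 in Tet3 mutant replicate 2, so both mutants lay below both controls (limma adjusted p = 0.681). Values below are given in that order of libraries. The table's totals ranged from 6805272 to 7164573 normalized counts. Control replicate 2 stood apart: *Xist* was at 2 there and between 5214 and 6781 in the other 3 libraries. The study used mice of both sexes. Whether control replicate 2 differed in sex from the other libraries was not tested, and such a difference cannot be told apart from others of that library. Control replicate 2 is therefore also left out in turn where it touches a result. The 10 smooth muscle markers were all present, with a summed level of 10762 to 11305 in controls and 11870 to 12895 in mutants. Both mutants lay above both controls in 6 of the 10 and below them in 0, beside 19.6% and 19.5% of all genes tested. *Mylk*, the most abundant of them, overlapped at 5721 and 4705 against 5134 and 4476. Markers of other lung cells were present too. The 7 alveolar type 2 markers summed to 14063 and 20836 in controls against 10000 and 12722 in mutants, and the 6 leukocyte markers, among them *Ptprc*, which encodes CD45, to 4454 and 3153 against 5195 and 4729. No marker of these lists was at 0 in all libraries. In such bulk RNA, fewer cells of a type and less RNA per cell cannot be told apart.

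Class II transcripts were abundant in both genotypes. Per kilobase of exon (all annotated exons of a gene joined), *Cd74* had the highest mean level of the 10 genes, 759 normalized counts, above 99.9% of the genes tested. *H2-Eb1* followed with 520, *H2-Ab1* with 448 and *H2-Aa* with 340, the last above 97.6% of the genes tested. The ranges of the 3 chains over the libraries overlapped between neighbours in this order, whereas *Cd74* lay above *H2-Eb1* in every library. The peptide-exchange genes were lower, with 203 per kilobase for *H2-DMb1* and 135 for *H2-DMa*. *Ciita* had 105 per kilobase and *Cd86* 64.6, and from *H2-DMb1* down to *H2-Oa* each gene's range overlapped that of the next. The lowest levels per kilobase were 35.4 for *H2-Oa* and 14.9 for *Cd80*, the latter above 18.9% of the genes tested.

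**Figure D1:**
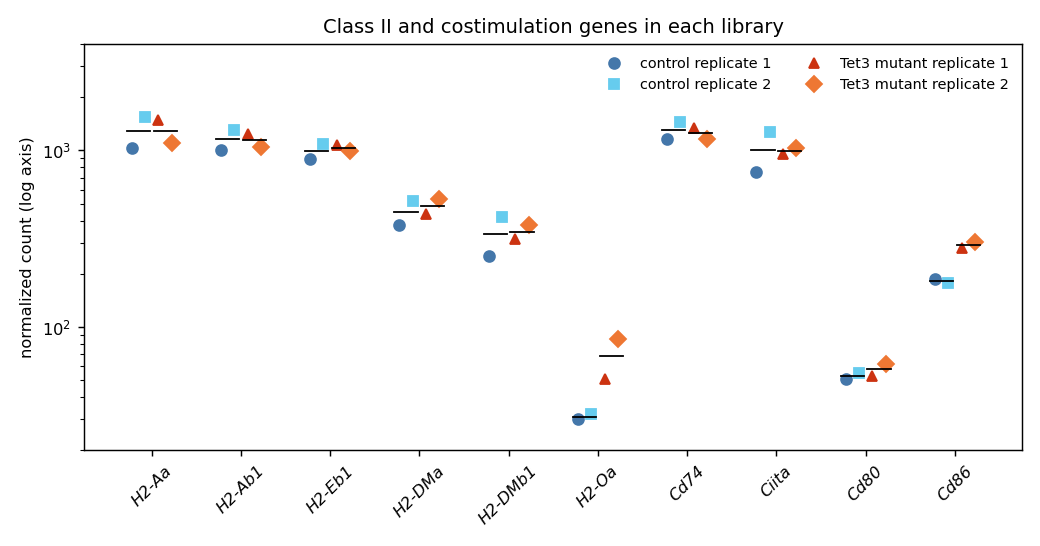
Normalized counts (log axis) of the 10 genes in each of the 4 libraries; points are libraries and short bars are the means of the 2 controls and of the 2 Tet3 mutants. The groups overlap for 8 genes, while for *H2-Oa* (30 and 32 against 51 and 86) and *Cd86* (187 and 177 against 280 and 302) both mutants lie above both controls.

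The comparison of genotypes found no gene past the threshold. At an adjusted p of 0.05 in limma's moderated test, 0.0% of the 16659 genes tested were called, and 0 of the 10 genes examined here. At an unadjusted p of 0.05, 2 of the 10, *H2-Oa* and *Cd86*, were higher in mutants and 0 were lower, beside 6.68% of all genes tested in either direction (1112 genes), 3.83% higher and 2.85% lower in mutants. Both mutants lay above both controls in the same 2 of 10 genes and below them in 0, and the shares over all genes tested were 19.6% and 19.5%, or 39.0% together. The median log2 fold change (Tet3 mutant over control, here and below) was 0.08 over the 10 genes and -0.01 over all genes tested.

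The class II chains form the peptide groove and did not separate the genotypes. *H2-Aa* (ENSMUSG00000036594, chromosome 17, 34282744 to 34287823), the α chain of the I-A molecule, was at 1027 and 1546 normalized counts in the control libraries against 1492 and 1095 in the mutant libraries. Its β chain *H2-Ab1* (ENSMUSG00000073421, chromosome 17, 34257689 to 34269419) was at 1010 and 1304 in the control libraries against 1245 and 1040 in the mutant libraries. *H2-Eb1* (ENSMUSG00000060586, chromosome 17, 34305867 to 34316674), the β chain of I-E, was at 890 and 1090 in the control libraries against 1065 and 995 in the mutant libraries. In all 3 chains control replicate 2 was the highest library and control replicate 1 the lowest, so the controls enclosed the mutants. The partner *H2-Ea*, the I-E α chain, was looked for and had no entry in the deposited table, so nothing is shown about it.

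The fold changes of the chains were accordingly small against their error. The log2 fold change was 0.02 for *H2-Aa* (standard error 0.25, 95% interval -0.62 to 0.66, limma adjusted p = 0.988). It was -0.01 for *H2-Ab1* (standard error 0.17, 95% interval -0.45 to 0.43, limma adjusted p = 0.990). For *H2-Eb1* it was 0.06 (standard error 0.14, 95% interval -0.29 to 0.42, limma adjusted p = 0.912). These intervals hold differences of either sign, and the p-values do not show that the levels were equal. The ratio of *H2-Aa* to *H2-Ab1* within a library was 1.02 and 1.19 in controls against 1.20 and 1.05 in mutants.

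*Cd74* (ENSMUSG00000024610, chromosome 18), the invariant chain that escorts class II molecules to endosomes, followed the chains. It was at 1159 and 1440 normalized counts in the control libraries against 1338 and 1162 in the mutant libraries. Its log2 fold change was -0.05 (standard error 0.15, 95% interval -0.44 to 0.34, limma adjusted p = 0.940). Relative to *H2-Ab1* it was 1.15 and 1.10 in controls against 1.07 and 1.12 in mutants, ratios that overlapped between genotypes.

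*H2-DMa* and *H2-DMb1* encode the α and a β chain of H2-DM, which catalyses peptide exchange. *H2-DMa* (ENSMUSG00000037649, chromosome 17, 34119541 to 34139101) was at 376 and 518 normalized counts in the control libraries against 434 and 530 in the mutant libraries. *H2-DMb1* (ENSMUSG00000079547, chromosome 17, 34153072 to 34160230) was at 251 and 420 in the control libraries against 314 and 380 in the mutant libraries. Control replicate 1 was again the lowest library for both genes, and the groups overlapped. The log2 fold change of *H2-DMa* was 0.12 (standard error 0.21, 95% interval -0.40 to 0.64, limma adjusted p = 0.885), and that of *H2-DMb1* was 0.09 (standard error 0.28, 95% interval -0.62 to 0.80, limma adjusted p = 0.942). Of the 75-base stretches of *H2-DMb1* transcripts, 15.8% also occur in transcripts of its neighbour *H2-DMb2*, and exons of *Brd2* on the opposite strand cover 10.4% of the exon bases of *H2-DMa*. Reads assigned to several genes or places were left out by the authors, so the values of this pair are uncertain to that extent.

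*H2-Oa* (ENSMUSG00000024334, chromosome 17, 34092340 to 34095234), the α chain of the H2-DM inhibitor H2-O, had the largest fold change of the 10 genes. It was at 30 and 32 normalized counts in the control libraries against 51 and 86 in the mutant libraries, with means of 31.0 ± 1.41 (SD, n = 2) and 68.5 ± 24.7 (SD, n = 2). Both mutants lay above both controls, and the mutants differed from each other by 1.69 times. The log2 fold change was 1.07 (standard error 0.37, 95% interval 0.13 to 2.01), a fold of 2.10, with an unadjusted p of 0.0325 and an adjusted p of 0.681 in limma's test. Leaving out each library in turn gave log2 fold changes from 0.70, without Tet3 mutant replicate 2, to 1.44. *H2-Oa* rests on few counts, with a mean of 49.8 over all libraries. Exons of *BC051537* on the opposite strand cover 22.8% of the exon bases of *H2-Oa*, and a strand setting of the read counting is not given in the sources used here.

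The difference in *H2-Oa* was also present relative to its partners. The ratio of *H2-Oa* to *H2-DMa*, whose product it inhibits, was 0.0798 and 0.0618 in controls against 0.118 and 0.162 in mutants. Its ratio to *H2-Ob*, the β chain with which it pairs, was 0.231 and 0.225 in controls against 0.293 and 0.457 in mutants. In both ratios each mutant exceeded each control. H2-O is known mainly from B cells and some dendritic cells. The 8 B cell markers summed to 677 and 184 in controls against 652 and 371 in mutants, so the groups overlapped, and the 10 dendritic cell markers to 3347 and 3153 in controls against 4046 and 4694 in mutants, so they did not. *H2-Oa* was higher in mutants relative to the dendritic cell sum (0.00896 and 0.0101 in controls, 0.0126 and 0.0183 in mutants) and overlapped between genotypes relative to the B cell sum. All these ratios use the *H2-Oa* values that singled it out, so they are not independent evidence.

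*Ciita* (ENSMUSG00000022504, chromosome 16, 10480059 to 10528418), the master coactivator of the class II genes, was at 750 and 1271 normalized counts in the control libraries against 954 and 1026 in the mutant libraries. The controls differed from each other by 1.69 times and enclosed both mutants, which differed by 1.08 times. The log2 fold change was 0.02 (standard error 0.26, 95% interval -0.65 to 0.68, limma adjusted p = 0.990). *Ciita* depended most plainly on which control was kept. Without control replicate 1 its log2 fold change was -0.36 at an unadjusted limma p of 0.0337 (adjusted p = 0.226), and without control replicate 2 it was 0.40 at an unadjusted limma p of 0.0258 (adjusted p = 0.801).

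The other class II genes shared this dependence. Control replicate 1 was the lowest library in 9 of the 10 genes, beside 19.2% of all genes tested, and control replicate 2 was above control replicate 1 in 9 of 10, beside 49.8%. Without control replicate 2, the library low in *Xist*, both mutants lay above the remaining control in 10 of 10 genes (32.4% of all genes tested), and the 8 genes other than *H2-Oa* and *Cd86* had log2 fold changes from 0.11 to 0.46. Without control replicate 1, 7 of those 8 had a log2 fold change below 0, and the range was -0.36 to 0.06. Both mutants then lay below the remaining control in 6 of 10 genes (38.8% of all genes tested) and above it in 2 of 10 (39.9%). The direction of the genotype difference in the class II chains, *Cd74*, *H2-DMa*, *H2-DMb1* and *Ciita* thus changed with the control kept. *H2-Oa* and *Cd86* kept theirs. *Cd80*, at 0.06 without control replicate 1 and 0.17 without control replicate 2, also kept its sign. Where the controls enclosed both mutants, these opposite signs followed from that order alone. The mutant kept mattered too: *H2-Aa* was at -0.20 with mutant 1 omitted and 0.24 with mutant 2 omitted. In that order *H2-Ab1* was at -0.14 and 0.12, and *Cd74* at -0.15 and 0.05. *H2-DMa* was at 0.26 and -0.02, *H2-DMb1* at 0.23 and -0.05, and *Ciita* at 0.07 and -0.03. *H2-Eb1* kept its sign, at 0.01 and 0.11.

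**Figure D2:**
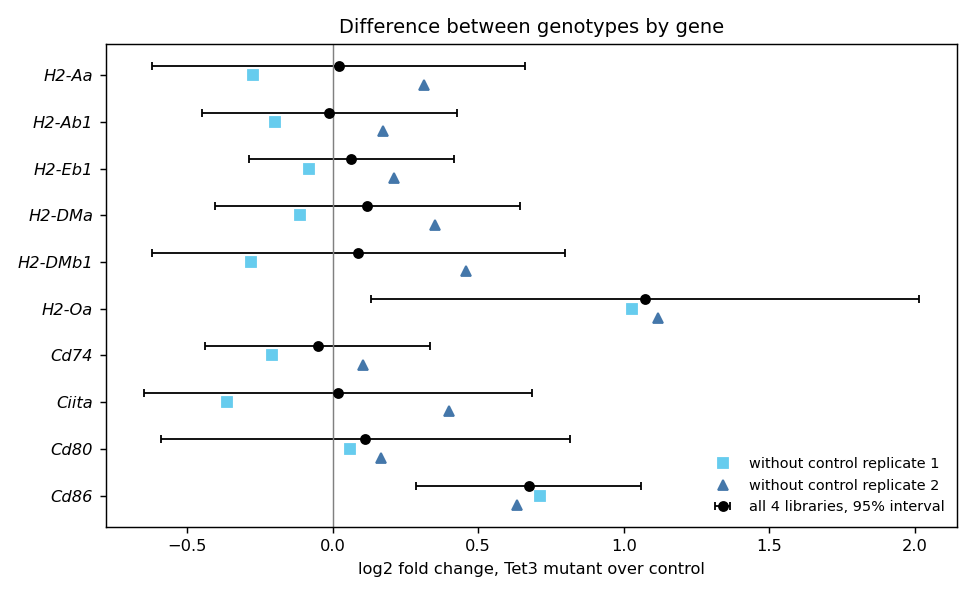
Log2 fold change (Tet3 mutant over control) of each gene with all 4 libraries and its 95% interval from limma (black), and without control replicate 1 (squares) or control replicate 2 (triangles). The squares and triangles fall on opposite sides of 0 for 7 genes, and the intervals of *H2-Oa* (0.13 to 2.01) and *Cd86* (0.29 to 1.06) lie above 0 before adjustment.

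The costimulatory ligands behaved differently from each other. *Cd80* (ENSMUSG00000075122, chromosome 16, 38455561 to 38496335) was at 51 and 55 normalized counts in the control libraries against 53 and 62 in the mutant libraries, and the groups overlapped. Its log2 fold change was 0.11 (standard error 0.27, 95% interval -0.59 to 0.81, limma adjusted p = 0.923). *Cd86* (ENSMUSG00000022901, chromosome 16, 36603869 to 36666081), the ligand that antigen-presenting cells carry before activation, was at 187 and 177 in the control libraries against 280 and 302 in the mutant libraries. The replicates of each genotype differed by at most 1.08 times, and both mutants lay above both controls.

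The fold of *Cd86* had a 95% interval of 1.22 to 2.08, at a log2 fold change of 0.67, a standard error of 0.15, an unadjusted p of 0.00636 and an adjusted p of 0.681 in limma's test. It was the smallest p of the 10 genes. Left-out libraries moved its log2 fold change between 0.62 and 0.73. *Cd86* was chosen here with these values known, so its direction is not independent evidence. The ratio of *Cd86* to *Cd80* within a library was 3.67 and 3.22 in controls against 5.28 and 4.87 in mutants, higher in both mutants. No test of this ratio was run, and *Cd80* rests on few counts.

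The summed macrophage and dendritic cell markers were also higher in both mutants, whereas the B cell sum overlapped between genotypes. The 12 macrophage markers summed to 8447 and 7668 in controls against 9119 and 10327 in mutants, with 4 of 12 higher at an unadjusted limma p of 0.05, beside 3.83% of all genes tested. Among the 4 were *C1qa* and *C1qb*, subunits of complement C1q (389 to 492 normalized counts over both genes in controls, 493 to 683 in mutants), while *Lyz2*, lysozyme, overlapped at 1120 and 1361 against 1197 and 1033. Of the 10 dendritic cell markers 2 were higher at that level, *Xcr1*, a receptor of cross-presenting dendritic cells (84 and 130 against 170 and 221), and *Fscn1* (229 and 184 against 423 and 283). In 6 of the 10 both mutants lay above both controls, beside 19.6% of all genes tested. *Zbtb46* and *Clec9a* were among the markers that overlapped, *Clec9a* at 107 and 179 against 178 and 175. Relative to the macrophage sum, *Cd86* was 0.0221 and 0.0231 in controls against 0.0307 and 0.0292 in mutants. Relative to the dendritic cell sum it was 0.0559 and 0.0561 against 0.0692 and 0.0643, both still higher in mutants. The most abundant genes of the dendritic cell sum were *Sirpa* (1321 and 993 against 1336 and 1447) and *Itgax* (696 and 454 against 729 and 1030). They weigh most in that ratio, which was not computed without them. Relative to *Ptprc*, *Cd86* was 0.0875 and 0.130 against 0.105 and 0.160, which overlapped. Its ratio to the whole leukocyte sum, 0.0420 and 0.0561 against 0.0539 and 0.0639, overlapped too, as did that to the B cell sum. The part of these cells in the level of *Cd86* was not tested beyond these ratios.

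The class II chains ranked the libraries in another order than these marker sums. Chains and *Cd74* together were 0.917 and 1.71 times the leukocyte sum in controls and 0.989 and 0.908 times in mutants. Relative to the macrophage sum they were 0.484 and 0.702 in controls against 0.564 and 0.416 in mutants. Both ratios overlapped between genotypes. Control replicate 2, the highest library in class II, was the lowest in the leukocyte, B cell, dendritic cell, macrophage and T cell sums and the highest in the alveolar type 2 sum. Among the alveolar type 2 markers, *Slc34a2*, a phosphate transporter, was at 3422 and 4664 normalized counts in the control libraries against 2500 and 3072 in the mutant libraries, and *Abca3*, a surfactant lipid transporter, 3360 and 5981 against 2080 and 2929. The part of alveolar type 2 cells in the class II level was not tested.

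**Figure D3:**
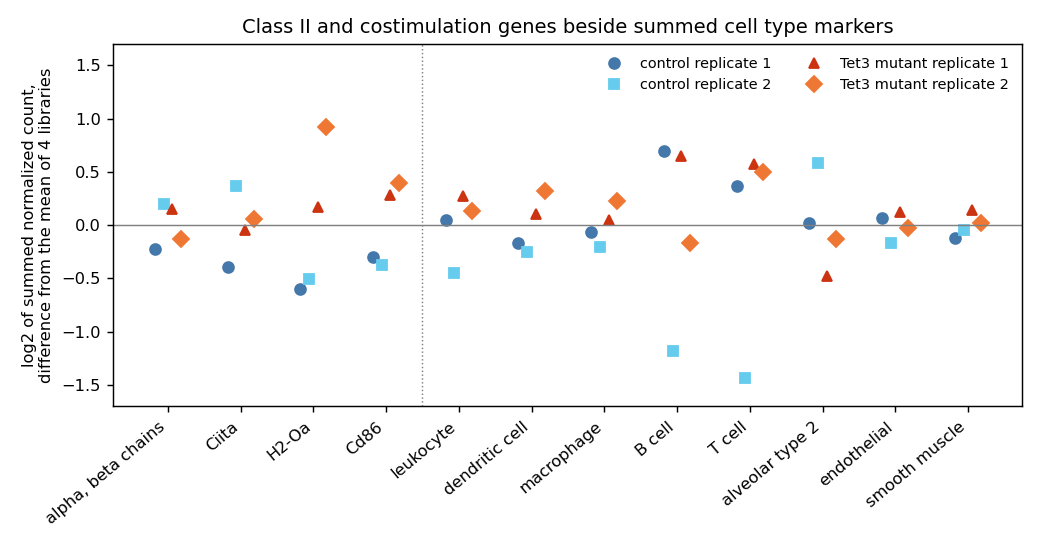
Log2 of the summed normalized counts of the 3 class II chains, of 3 single genes and of 8 marker lists, each as the difference from its mean over the 4 libraries; points are libraries. Both mutants are highest for *H2-Oa*, *Cd86* and the leukocyte, dendritic cell, macrophage, T cell and smooth muscle sums. Control replicate 2 is highest for the chains, *Ciita* and the alveolar type 2 sum (20836) and lowest for the B cell (184) and T cell (173) sums.

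Most class II genes lie together on chromosome 17. From *H2-Oa* to *H2-Eb2* the table held 18 genes over 249 kb on GRCm38, and 15 were tested. Of these 13 had a log2 fold change above 0, with a median of 0.21, and 8 (53.3%) had both mutants above both controls, beside 19.6% of all genes tested. The 3 chains, *H2-DMa* and *H2-DMb1* were not among the 8, whereas *H2-Oa*, *H2-DMb2*, *H2-Ob* and *H2-Eb2* were. *H2-DMb2*, the second H2-DM β chain, was at 96 and 107 normalized counts in the control libraries against 136 and 186 in the mutant libraries, a log2 fold change of 0.65 at an unadjusted limma p of 0.0421. *H2-Ob* was at 130 and 142 against 174 and 188 (0.41), and *H2-Eb2* 30 and 20 against 38 and 35 (0.55). The class I genes of the region, *Psmb8*, *Psmb9*, *Tap1* and *Tap2*, which make and transport peptides for class I molecules, made up the rest of the 8, and *Tap1* was at 652 and 613 against 715 and 746 (0.21). *Brd2* alone had both mutants below both controls, at 1759 and 1908 against 1734 and 1680. No gene of the region had an adjusted p under 0.05.

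**Figure D4:**
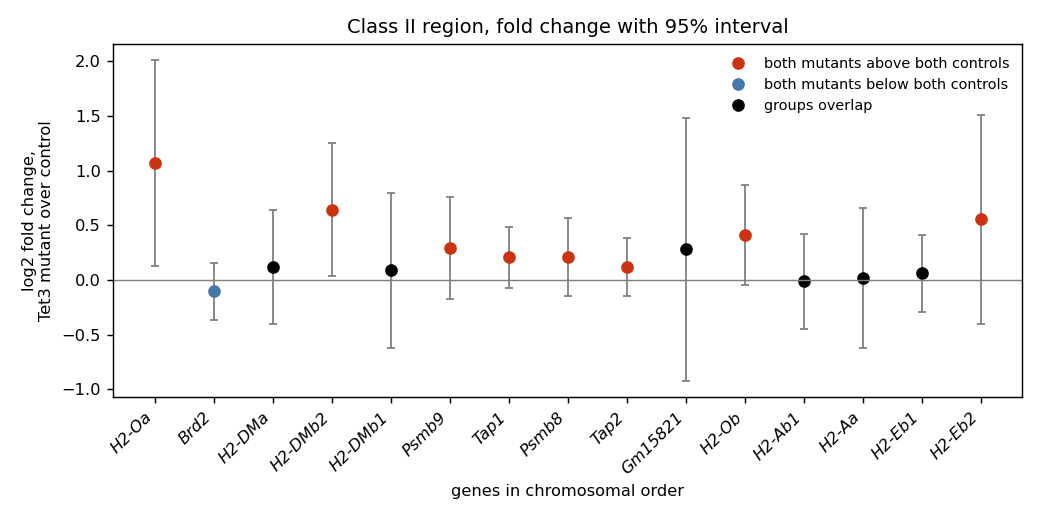
Log2 fold change (Tet3 mutant over control) with 95% limma interval of the 15 tested genes of the class II region, in chromosomal order. The 8 genes with both mutants above both controls range from *Tap2* (0.12) to *H2-Oa* (1.07), and *H2-Ab1*, *H2-Aa* and *H2-Eb1* lie between -0.01 and 0.06.

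The wider pathway was followed through 8 further lists holding 71 genes, of which 67 were in the table and 61 were tested. None was called after adjustment, 6 were higher and 0 lower in mutants at an unadjusted limma p of 0.05 (9.84%, beside 6.68% of all genes tested), and both mutants lay above both controls in 28 (45.9%) and below in 4, beside 19.6% and 19.5% of all genes tested. The count of 6 rested on the libraries kept: it was 19 without control replicate 1, 0 without control replicate 2, and 1 and 0 when Tet3 mutant replicates 1 and 2 were left out in turn. The count over all genes tested, 1112 with all libraries, went to 3366, 894, 273 and 414 under the same omissions.

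The factors that bind the X and Y boxes were not among those that passed. Of the 7 enhanceosome genes 0 passed an unadjusted p of 0.05, and their median log2 fold change was -0.06. *Rfx5*, the X box factor, was at 349 and 411 normalized counts in the control libraries against 368 and 358 in the mutant libraries, and its partner *Rfxank* 201 and 257 against 183 and 195. *Nfya*, a subunit of the Y box factor, was at 745 and 713 against 717 and 684. Among the 6 regulators of the *Ciita* promoters, all had a log2 fold change above 0 (median 0.24) and 1 passed the unadjusted threshold. This was *Spi1*, the myeloid and B cell factor PU.1, at 336 and 298 against 408 and 489 (log2 fold change 0.50, at an unadjusted limma p of 0.0238). *Irf8*, which acts with it, was at 846 and 944 against 1141 and 1012. The 8 interferon gamma signalling genes had a median of 0.11 and none passed, with *Ifngr1*, a receptor chain for the cytokine, at 1123 and 961 against 1195 and 1133.

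Of the 11 genes of antigen processing and class II turnover, 3 were higher at the unadjusted threshold and 0 lower, beside 3.83% and 2.85% of all genes tested, with a median of 0.16. Without control replicate 2 the number that passed was 0, and without control replicate 1 it was 4. *Lgmn*, an endosomal protease that trims the invariant chain, was at 881 and 867 normalized counts in the control libraries against 1138 and 1025 in the mutant libraries. *Marchf1*, a ubiquitin ligase that removes class II and CD86 protein from the surface, was at 381 and 228 against 460 and 541. *Cd83*, a membrane protein that opposes that ligase, was at 307 and 268 against 406 and 376. The ligase and its opponent were thus both higher in both mutants, with log2 fold changes of 0.76 and 0.44. *Ctsb*, an abundant lysosomal protease, was at 1905 and 1810 against 1983 and 2006.

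Costimulation involves further ligands and their receptors on T cells. Of 11 further ligands 9 were in the table and 6 were tested, and 0 passed the unadjusted threshold. *Icosl*, the ligand of ICOS, was at 739 and 511 normalized counts in the control libraries against 786 and 812 in the mutant libraries, and *Cd40*, which T cells engage to license presenting cells, was at 358 and 221 against 365 and 314. *Tnfsf9*, the ligand of 4-1BB, was lower in both mutants than in either control, at 45 and 86 against 16 and 42. On the T cell side, *Cd28*, the receptor of CD80 and CD86, was at 87 and 9 in the control libraries against 59 and 45 in the mutant libraries, so the controls enclosed both mutants. *Tnfrsf4* (OX40) was the 1 of 7 receptors to pass, at 21 and 8 against 45 and 33 (at an unadjusted limma p of 0.0434). The median of the 7 was 0.60 with all libraries, -0.22 without control replicate 2 and 1.32 without control replicate 1. The 8 T cell markers summed to 604 and 173 in controls against 696 and 661 in mutants, and the part of T cells in this list was not tested.

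Class I presentation, which all nucleated cells carry out, served for comparison. Of its 13 genes 0 passed the unadjusted threshold, 7 had both mutants above both controls and 1 below (19.6% and 19.5% of all genes tested), and the median was 0.12. The heavy chain *H2-D1* was at 1289 and 1397 normalized counts in the control libraries against 1362 and 1265 in the mutant libraries. *Psmb10*, an immunoproteasome subunit, was at 252 and 196 against 305 and 294, a log2 fold change of 0.43.

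**Figure D5:**
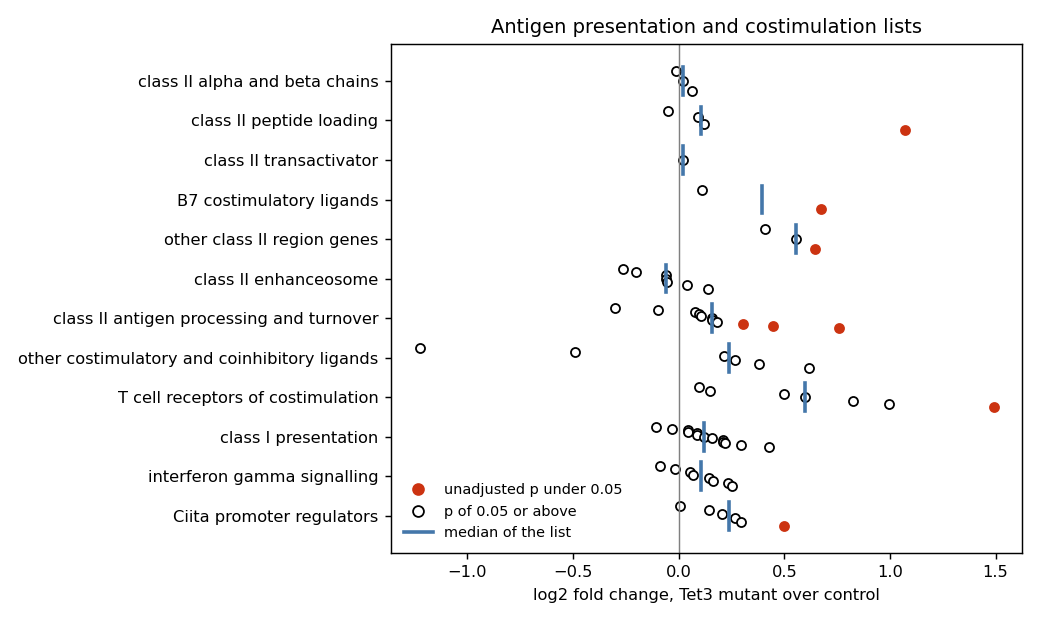
Log2 fold change (Tet3 mutant over control) of every tested gene of the lists of class II, costimulation and related genes; points are genes, filled where the unadjusted limma p is under 0.05, and vertical bars are list medians. The medians run from -0.06 for the enhanceosome to 0.60 for the T cell receptors of costimulation, and no gene passed after adjustment.

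The genes nearest to each pattern were sought among 12779 genes with a mean of at least 50 normalized counts, by the root mean square difference of centred log2 values over the 4 libraries. For the mean profile of the chains and *Cd74*, which was itself computed from those 4 genes, the nearest other gene was *Gm22009* (0.022), followed by *Mxd1* (0.027), *Ccdc157*, *Ciz1*, *Tchp*, *Tmsb4x*, *Gm42778*, *Dbt*, *Ighmbp2* and *Adcy6* (0.038). Only the 10 genes chosen by name were left out of the search, so they could not appear among the nearest. Genes of the further lists and of the marker lists with a mean of at least 50 stayed in it, *H2-Ob* and *H2-DMb2* among them. Measured against the same profile, *Ciita*, at 0.18, and *H2-DMa*, at 0.20, lay farther away than the nearest genes named. Nearest to *Cd86* were *Foxc1* (0.010) and *Jaml* (0.014), then *Fbxo36*, *Gpr183*, *Ccdc34*, *Stmn2*, *Fgl2*, *Cx3cr1*, *Lsm8* and *Jchain* (0.053). *Cx3cr1*, a chemokine receptor of monocytes and macrophages, was at 605 and 542 in the control libraries against 827 and 933 in the mutant libraries, and *Gpr183*, an oxysterol receptor of leukocytes, was at 114 and 105 against 171 and 174. The order rests on 4 libraries and is a description.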

How the data were processed

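RNA of 2 control and 2 Tet3 mutant samples was measured, grouped by the genotype in the labels. By the study's methods and the submitters' processing notes, the authors trimmed single-end reads (Trimmomatic 0.36), aligned them to mm10 (STAR 2.6.0c), counted reads touching exons (featureCounts, Subread 1.6.0), excluded reads of several genes or places, and scaled the counts with DESeq2. What they deposited is therefore a score, namely normalized counts in whole numbers rather than raw counts, so no count model was fitted and raw depth is not given.

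Genes with a mean of at least 10 were tested on log2(value + 1) with limma 3.58.1 in R 4.3.3 (trend, two-sided, Benjamini-Hochberg over all genes, threshold 0.05), a scale that understates changes of low genes. The fit was checked on simulated data. With 2 against 2 an exact permutation test cannot go below 0.333. Each p-value sets the difference between genotype means against the spread between these samples. The limma fit moderated that spread with a trend over all genes tested. Exon lengths came from GENCODE of the same build.

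The genes and lists were chosen with earlier results of these data known. The naming rule covered the 10 genes, *Tet3*, and the 10 nearest to each of 2 profiles. Of each other list it covered the 3 most abundant and 2 of smallest p. Not every gene it covered is described above. *Tap2*, *Psmb8*, *Psmb9*, *Brd2*, *Xist* and *Clec9a* were named after their values were seen. A gene that this rule names is not reported here. Lists not described above are endothelial markers, whose sums were 8082 to 9482 in controls and 8881 to 9842 in mutants. Alternatives were a pseudocount of 0.5 or 8, a minimum mean of 1 or 50, equal totals, upper-quartile scaling, limma without trend, a replicate block, and each library left out. Leaving out each control for the lists was added after the data were seen.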

Additional observations from a re-analysis of the deposited data

How the results depend on the processing

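Under 8 settings other than left-out libraries, 77 of 79 fold changes of single genes kept their direction and their side of the threshold. The exceptions were *H2-Ab1* at equal totals (0.036) and with upper-quartile scaling (0.020), against -0.01. With a mean of at least 50, *H2-Oa* was not tested, so 1 gene of the 10 remained at an unadjusted p of 0.05 and 1 with groups that did not overlap. Without the trend 1 gene of the whole table was called, and it was none of the 10. The replicate number as a block gave 0 calls over all genes, 1637 at an unadjusted p of 0.05 against 1112, and a smallest adjusted p of 0.149. Deviations of same-numbered samples correlated at 0.134 over 2 pairs, so the numbers were not shown to pair the samples.

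With each library left out in turn, limma assumes that the lone sample varies like the other group. Calls over all genes were then 0 to 0, genes of the 10 at an unadjusted p of 0.05 were 0 to 2, those with groups that did not overlap 2 to 10, their median log2 fold change -0.15 to 0.33, and genes of the 8 further lists at an unadjusted p of 0.05 were 0 to 19. For 7 of the 10 the sign turned, over ranges of -0.27 to 0.32 (*H2-Aa*), -0.20 to 0.17 (*H2-Ab1*), -0.082 to 0.21 (*H2-Eb1*), -0.11 to 0.35 (*H2-DMa*), -0.28 to 0.46 (*H2-DMb1*), -0.21 to 0.11 (*Cd74*) and -0.36 to 0.40 (*Ciita*). The cause was not tested. With 2 samples a group, the intervals given above were wide, and a difference of any size within a gene's interval was not excluded. *H2-Oa* had the largest standard error of the 10 (0.37).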
